A study of Mus musculus with 6 samples.

Results

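The regions described here are those centred on an intracisternal A particle (IAP) element in a list of genomic regions from chromatin immunoprecipitation and sequencing (ChIP-seq) of PHF13 in mouse testis. A region was taken when it lay on chromosome 1 to 19 or X and the repeat named at its centre in the deposited list began with IAP. This gave 1917 regions of 39096 in the whole list and of 23030 on the same chromosomes, or 8.32% of the latter (95% Wilson interval 7.97 to 8.69%, counting error only). PHF13, labelled SPOC1, is a chromatin protein whose PHD finger reads methylated histone H3. All 6 libraries came from testis of C57Bl/6 mice aged 5 weeks. SPOC1 ChIP was sequenced 3 times, with the genotype given as wild type for 1 library and as Phf13-/- for 2. Input chromatin was sequenced 3 times as well, and there wild type is given for 2 and Phf13-/- for 1. One animal code, D821, carries wild type on its input and Phf13-/- on its ChIP, so the genotypes formed no groups here. The list holds 1 score per region for the whole series and no value per library, so there is no replicate error, depth per library is unknown, and no difference below was tested. Whether the regions mark PHF13 itself, and what input shows at them, was not tested. Regions of 1 element are not independent, and regions are not replicates.

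IAP elements are endogenous retroviruses of the mouse, most of which lack an envelope gene, and they copy themselves within the cell through RNA. A complete element has an internal part, with the genes for the particle and the reverse transcriptase, between a pair of long terminal repeats (LTRs); the LTR holds the promoter, and the site where a transfer RNA primes reverse transcription lies just inside the first LTR. In the male germ line they are held silent by DNA methylation, by H3K9 methylation through KRAB zinc finger proteins, TRIM28 and SETDB1, and by the piRNA pathway. An LTR that escapes this control can start transcripts of a nearby gene, as in the agouti viable yellow mouse, and some IAP copies differ in methylation between genetically identical mice.

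A genome sequence of the list's build was not used here, so the regions' own bases were not read. The promoter table of RefSeq (build GRCm38.p6, the assembly behind mm10) holds 250 bases before and 50 after a gene's start, and 171 of its 32619 windows on these chromosomes (0.524%) lay within 8 kb of an IAP region. Of these, 12 windows at 12 places shared sequence with each other: each was linked to the rest through stretches of at least 20 identical bases on either strand. They are shown because they carry the sequence found beside IAP regions at annotated gene starts; capitals mark bases in a stretch shared with another window of the group. Gm52433 (chrX:77078033-77078332, minus strand) was the single window that overlapped an IAP region. Gm52441 (chrX:84512575-84512874, minus strand) and Gm52432 (chrX:65707145-65707444, plus strand) lay 23 and 34 bases from one. Gm33671 (chr10:21216246-21216545, plus strand) starts a long non-coding RNA. Eps8l1 (chr7:4460447-4460746, plus strand) and Gm39637 (chr1:45734080-45734379, minus strand) carry the shared sequence on the opposite strand.
Gm52433: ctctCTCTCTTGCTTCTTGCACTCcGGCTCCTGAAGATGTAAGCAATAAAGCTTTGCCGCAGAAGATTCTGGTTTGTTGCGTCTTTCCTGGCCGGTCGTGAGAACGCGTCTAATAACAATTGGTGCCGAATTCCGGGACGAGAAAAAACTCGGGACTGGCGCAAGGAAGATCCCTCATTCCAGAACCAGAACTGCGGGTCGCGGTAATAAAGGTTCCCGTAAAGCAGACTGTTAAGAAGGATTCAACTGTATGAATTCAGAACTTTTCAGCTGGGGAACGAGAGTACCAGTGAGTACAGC
Gm52441: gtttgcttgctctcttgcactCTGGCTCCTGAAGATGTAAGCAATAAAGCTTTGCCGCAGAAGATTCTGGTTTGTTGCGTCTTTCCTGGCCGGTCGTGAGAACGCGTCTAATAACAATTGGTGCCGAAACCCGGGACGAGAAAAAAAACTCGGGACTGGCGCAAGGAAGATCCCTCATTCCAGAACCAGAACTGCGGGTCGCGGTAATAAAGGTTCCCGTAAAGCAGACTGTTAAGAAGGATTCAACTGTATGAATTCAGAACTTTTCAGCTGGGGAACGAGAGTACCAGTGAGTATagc
Gm52432: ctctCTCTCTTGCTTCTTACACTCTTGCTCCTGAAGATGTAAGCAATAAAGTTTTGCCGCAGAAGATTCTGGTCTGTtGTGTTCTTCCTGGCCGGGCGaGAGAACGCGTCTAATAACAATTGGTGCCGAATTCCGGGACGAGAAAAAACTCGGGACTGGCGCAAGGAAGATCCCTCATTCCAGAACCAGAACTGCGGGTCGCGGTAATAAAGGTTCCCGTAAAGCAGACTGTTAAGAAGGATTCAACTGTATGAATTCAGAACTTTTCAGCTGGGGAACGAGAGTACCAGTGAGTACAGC
Gm33671: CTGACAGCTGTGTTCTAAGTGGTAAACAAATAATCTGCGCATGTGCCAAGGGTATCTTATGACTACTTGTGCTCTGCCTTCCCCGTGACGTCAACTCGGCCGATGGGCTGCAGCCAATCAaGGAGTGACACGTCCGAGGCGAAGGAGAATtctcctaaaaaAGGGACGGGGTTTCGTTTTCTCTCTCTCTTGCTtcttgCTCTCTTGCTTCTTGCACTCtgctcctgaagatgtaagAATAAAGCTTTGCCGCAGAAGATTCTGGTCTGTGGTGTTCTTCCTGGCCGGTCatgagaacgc
Eps8l1: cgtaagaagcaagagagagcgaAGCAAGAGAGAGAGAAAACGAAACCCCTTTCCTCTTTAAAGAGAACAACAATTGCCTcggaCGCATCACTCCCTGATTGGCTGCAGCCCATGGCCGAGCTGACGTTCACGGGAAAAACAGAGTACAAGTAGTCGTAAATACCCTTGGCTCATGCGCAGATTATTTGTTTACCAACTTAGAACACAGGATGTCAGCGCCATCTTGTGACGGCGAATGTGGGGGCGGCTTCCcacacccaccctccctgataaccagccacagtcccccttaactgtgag
Gm39637: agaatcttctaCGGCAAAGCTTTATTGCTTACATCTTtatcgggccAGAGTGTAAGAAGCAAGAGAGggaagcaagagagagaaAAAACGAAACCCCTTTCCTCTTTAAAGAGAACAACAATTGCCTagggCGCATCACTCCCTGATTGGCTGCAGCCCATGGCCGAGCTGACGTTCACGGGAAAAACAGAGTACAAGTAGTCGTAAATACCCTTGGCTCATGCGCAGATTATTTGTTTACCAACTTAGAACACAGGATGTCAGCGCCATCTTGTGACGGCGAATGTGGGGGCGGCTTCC

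The first 3 windows, with that of Gm52446 (2438 bases from a region), shared an identical run of 154 bases, which no other of the 32619 windows held. The most widely shared run of the group was 21 bases long, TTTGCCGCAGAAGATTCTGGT, and stood in 7 of the 12; over all promoter windows it stood in 14, of which 7 were the ones within 8 kb of an IAP region. The 12 windows were richer in CpG, the dinucleotide that is methylated in silenced LTRs: their median was 15 CpG per 300 bases (11 to 17), against 6 in the other 159 windows within 8 kb and 7 in all windows. Their median GC content of 48.7% was below the 53% of all windows. The letters CCAAT, on either strand, stood in 10 of the 12 and in 37.6% of all windows. AATAAA stood in 8 of the 12 and in 19.6% of all windows, and TATAAA, which cannot match at the same bases, in 1 of the 12 and in 13.7%. The windows were grouped by shared sequence, so shared letters follow from the grouping and a match is no sign of a bound factor.

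The genes of these windows were mostly predicted ones. RefSeq classes 7 as protein-coding and 5 as long non-coding RNA, and 6 lie on X. Of the 9 windows that read the shared sequence in the direction of Gm52433, 7 had the nearest IAP region downstream of the start. Those were the 6 on X (Gm52433, Gm52441, Gm52432, Gm52435, Gm52437 and Gm52446) and Gm14149 on chromosome 2. In the other pair, Gm33671 and Gm41479, the region lay upstream. All 3 windows of the opposite direction, Eps8l1, Gm39637 and Gm29709, also had it upstream. Of the other 159 windows within 8 kb of an IAP region, 58 had their nearest region downstream. The group was built from shared sequence and its direction was set by Gm52433, so the side is not independent of the grouping. Gm52433, Gm52441, Gm52432 and Gm52446 also share a long identical run and are not separate cases. No conclusion was drawn from the comparison. At Gm52433 the IAPEz-int region (chrX:77077589-77078089, score 18.7) reached from 7 bases before the start to 493 after it. At Gm52441 the region (chrX:84511782-84512552, score 21.2) began 72 bases after the start; by the authors' annotation it lies in intron 51 of 78 of Dmd, the dystrophin gene. Eps8l1, a relative of the actin regulator EPS8 and a known neighbour of a variably methylated IAP copy, had a region 1233 bases upstream of its window (chr7:4457529-4459214, score 63.1, 37.5 per kb). The stretches are not confined to the neighbourhood of listed regions: 50 promoter windows in all held one of the group's shared stretches, and 38 of them lay farther than 8 kb from an IAP region. The share within 8 kb was thus 24%, against 0.524% of all windows; the 12 windows were themselves chosen by that distance.

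**Figure D1:**
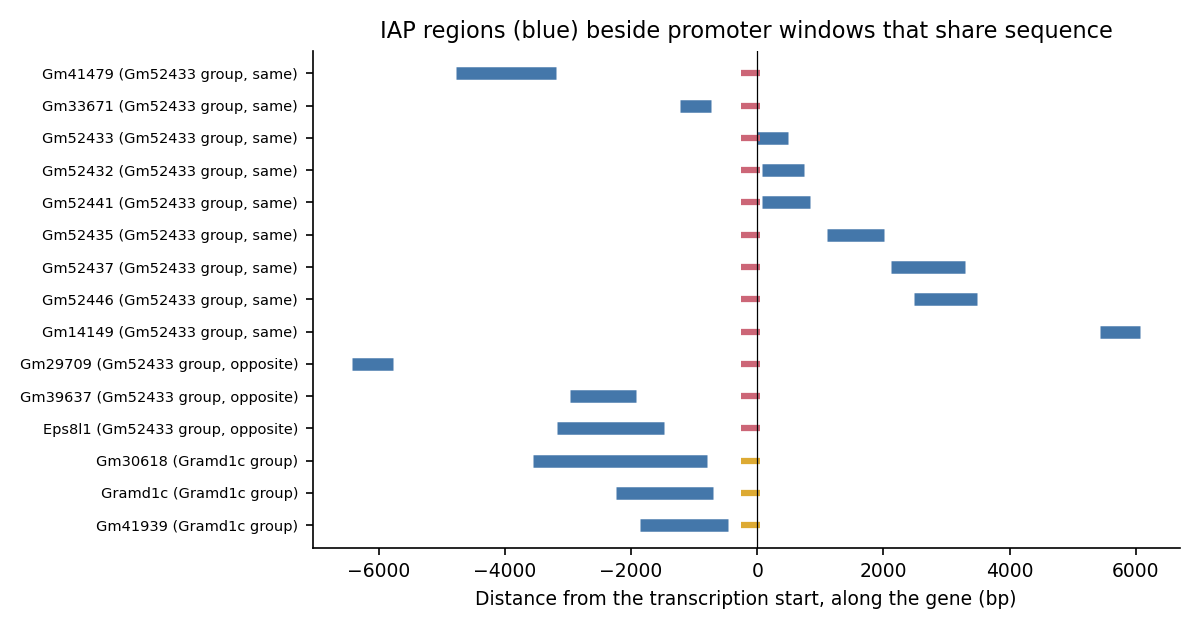
Position of the nearest IAP region (blue) along the gene relative to the transcription start (0, in bp) for the 12 promoter windows of the group that shares sequence with Gm52433 (red; same or opposite is the direction of the shared sequence relative to Gm52433) and the 3 of the Gramd1c group (yellow). In 7 windows of the same direction the region lies downstream, in all 3 of the opposite direction and all 3 of the Gramd1c group it lies upstream. Of the 159 windows within 8 kb outside the Gm52433 group, 58 have it downstream. The windows were grouped by shared sequence, so they are not independent cases and the side is not independent of the grouping.

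A smaller group of 3 windows shared other sequence. Gramd1c, which encodes a sterol transfer protein (chr16:44041959-44042258, minus strand), the long non-coding Gm30618 (chr10:30819435-30819734, plus strand) and the long non-coding Gm41939 on chromosome 1 all had an IAPEz-int region upstream, 454, 553 and 215 bases from the window. In all, 4 promoter windows held their shared stretches, and 3 of these are the windows named. The stretches were taken from the named windows, which were chosen within 8 kb of an IAP region. That these windows hold them thus follows from the choice. The region beside Gm30618 (chr10:30816128-30818882) had a score of 111.7, or 40.6 per kb, above the upper quartile of IAP regions (35.6 per kb). Capitals in the printed windows mark bases in a stretch shared with another of the 3, of which Gm41939 is not printed. Some capitals of Gm30618 are shared with Gm41939 and do not stand in the Gramd1c window.
Gramd1c: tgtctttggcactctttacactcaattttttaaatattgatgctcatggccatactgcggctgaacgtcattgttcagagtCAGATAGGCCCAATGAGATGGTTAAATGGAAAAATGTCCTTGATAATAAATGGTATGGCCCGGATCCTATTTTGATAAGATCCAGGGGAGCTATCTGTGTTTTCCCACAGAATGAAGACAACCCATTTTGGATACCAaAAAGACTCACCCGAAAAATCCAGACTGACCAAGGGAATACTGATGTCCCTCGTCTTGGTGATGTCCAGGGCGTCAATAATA
Gm30618: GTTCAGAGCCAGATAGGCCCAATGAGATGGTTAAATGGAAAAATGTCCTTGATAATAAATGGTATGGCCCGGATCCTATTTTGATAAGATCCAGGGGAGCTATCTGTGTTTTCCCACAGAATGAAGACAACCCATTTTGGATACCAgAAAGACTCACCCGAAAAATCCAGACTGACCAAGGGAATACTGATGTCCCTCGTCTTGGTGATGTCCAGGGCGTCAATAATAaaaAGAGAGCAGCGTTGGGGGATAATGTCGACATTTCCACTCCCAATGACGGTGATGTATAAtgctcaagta
A last group, of 4 windows, belonged to the neighbouring predicted genes Gm10061, Gm7735, Gm9789 and Gm6358 in 1 cluster on chromosome 16. Its stretches were found in 14 windows, and Gm10061 and Gm6358 had the same IAP region (chr16:89147353-89147853, score 13.2) as their nearest.

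Nearly all IAP regions were centred on the internal part of the element. The internal part accounted for 1909 regions (99.6%, 99.2 to 99.8%) and LTR names for 8. IAPEz-int, the internal part of a young IAP family that still moves in mice, was named at 1896 (98.9%, 98.3 to 99.3%). The remaining internal names were IAPEY4_I-int, at 12 regions, and IAPEy-int, at 1. Among LTR names, IAPLTR1a_Mm was found at 5 regions, IAPLTR2a2_Mm at 2 and IAPEY4_LTR at 1. The name is that at the centre of the region, so a region that runs into an LTR can still be counted as internal. How much of all IAP sequence in the genome is internal was not measured. The share is therefore not shown to be a preference for the internal part over the LTR.

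Regions at LTR names scored lower per length. The authors' score, whose unit is not given, grows with region length and was therefore also divided by length (score per kb). Its median was 32.2 per kb at the internal part (31.9 to 32.4, exact binomial interval of the median) and 20.6 at the 8 LTR regions (11.9 to 31.8), a log2 ratio of 0.65. The ratio rests on the 7 short LTR regions: without regions of 500 bp, which leaves 1 at an LTR name, it was 0.053, and in the 50% of the list with the higher score 0.086. All but 1 of the 8 were 500 bp long, the length that 670 of the 1917 members had exactly. The exception, at IAPLTR1a_Mm (chr15:17156035-17158135), was 2100 bp long with 31.8 per kb, within the interval of the internal part's quartiles (28.2 to 35.7). The lowest score of any member, 5.95, belonged to an IAPLTR2a2_Mm region on X (chrX:132216944-132217444). Of the 8, 2 stood alone and the others lay within 5 kb of another IAP region. All 670 members of 500 bp, the 7 at LTR names included, had a median of 29.4 per kb (28.8 to 30.2). The 12 IAPEY4_I-int regions had a median of 30.7 per kb (27.8 to 31.5) and a median length of 1133.5 bp. None of them was on X. Of the 12, 2 were intronic: 1 in intron 7 of 17 of Sema3d, an axon guidance gene (chr5:12519168-12520450, score 41.4), and 1 nearest to Ptk2, in a transcript that could not be matched to a gene (chr15:73376406-73377100, score 21.4).

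IAP regions were of middling length for the list but included few very long ones. Their median length was 757 bp (678 to 767; quartiles 500 and 1289), against 798 bp at L1Md_T, 779 bp at L1Md_A, 636 bp at MERVL-int and MT2_Mm and 669 bp over all other regions. The fixed length of 500 bp was found in 35%, against 28.8% at L1Md_T, 29.2% at L1Md_A, 39.5% at MERVL-int and MT2_Mm and 37.2% over all other regions. Lengths between 501 and 1000 bp were found in 31.8%, 1001 to 2000 bp in 21.6%, 2001 to 3000 bp in 9.86% and over 3000 bp in 1.77%. The longest measured 4454 bp, whereas regions at the young LINE-1 family L1Md_T reached 10693 bp and those at L1Md_A 6939 bp. Over 3000 bp in length were 10.5% of the L1Md_T and 7.93% of the L1Md_A regions. The median score was 23.1 (quartiles 16.4 and 43.5; range 5.95 to 160.3), and the 1917 regions covered 1.97 Mb and held 8.28% of the summed score on these chromosomes.

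Per length, IAP regions lay above the LINE-1 regions and level with another retrovirus. The median was 32.2 per kb over all IAP regions (31.8 to 32.4), 29.3 at L1Md_T (29.1 to 29.5), 28.9 at L1Md_A (28.7 to 29) and 32.2 at MERVL-int and MT2_Mm (31.9 to 32.6), the internal part and LTR of a retrovirus active in the early embryo. ETn and MMERVK10C, retroviruses of the same class as IAP, had 26.8 per kb (25.4 to 27.6). The IAP median was above that of L1Md_T and of L1Md_A on all 20 chromosomes and above that of MERVL-int and MT2_Mm on 11 of 20. Score per kb of IAP regions also rose with length up to 2001 to 3000 bp and was lower in the 34 longer ones, so the families were compared within length classes. At 500 bp or less IAP had 29.4 per kb and L1Md_T 26.4; at 1001 to 2000 bp IAP had 34 and L1Md_T 30.6. Over 3000 bp the medians were closer, 32.9 (31.9 to 34.3) for IAP and 32.2 (32 to 32.5) for L1Md_T. Against MERVL-int and MT2_Mm the order turned with length: IAP was lower at 500 bp or less (29.4 against 31.4) and higher at 1001 to 2000 bp (34 against 32.4). Mappability and copy number of the elements were not analysed here.

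**Figure D2:**
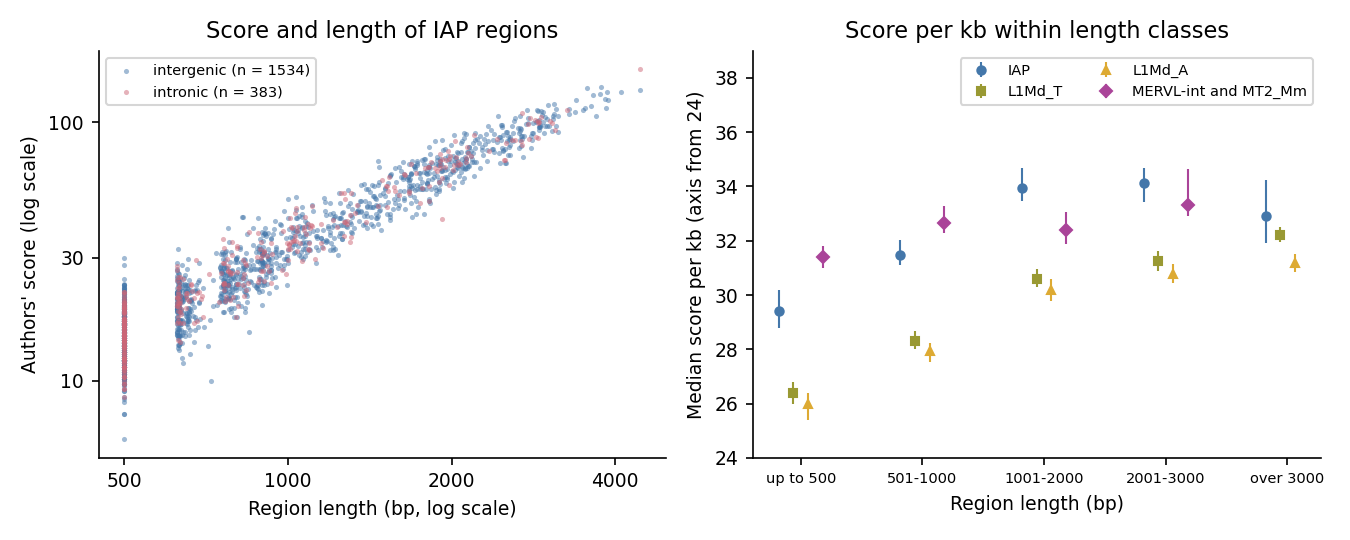
Left, the authors' score against region length for the 1917 IAP regions (log scales), intergenic in blue and intronic in red; right, the median score per kb in each length class for IAP, L1Md_T, L1Md_A and MERVL-int with MT2_Mm, with exact binomial intervals as bars. Intergenic and intronic regions overlap along 1 band, and IAP medians lie above both LINE-1 families in each length class, from 29.4 at 500 bp to 34.1 at 2001 to 3000 bp.

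IAP regions came in closely spaced sets. Of the 1897 gaps between neighbouring IAP regions on a chromosome, 557 were at most 5 kb, 13 were between 5 and 20 kb, and 1254 were over 100 kb, so that the short and the long gaps formed separate peaks. The shortest gap was 503 bp, and the median of the gaps up to 5 kb was 1034 bp. Joined across gaps of up to 5 kb, the 1917 regions made 1360 loci: 897 of 1 region, 376 of 2, 80 of 3 and 7 of 4. Loci with 2 or more regions thus held 53.2% of the members. Their span had a median of 3335 bp for 2 regions, 4816 bp for 3 and 5473 bp for 4, and the longest of all was 7580 bp. In the pairs the shorter region had a median of 500 bp and the longer of 1158 bp. When the next region of any kind was within 5 kb of an IAP region (593 cases), it was another IAP region in 557 and an L1Md_T or L1Md_A region in 24. The share with a next region that close was 30.9%, and 32.5% for L1Md_T and 32.1% for L1Md_A. Median score per kb was 32.7 in loci of 1 region, 32 in pairs, 30.7 in sets of 3 and 32.1 in the 7 sets of 4, with no steady order. Whether the regions of a locus lie in 1 element was not tested, since element borders were not used here.

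**Figure D3:**
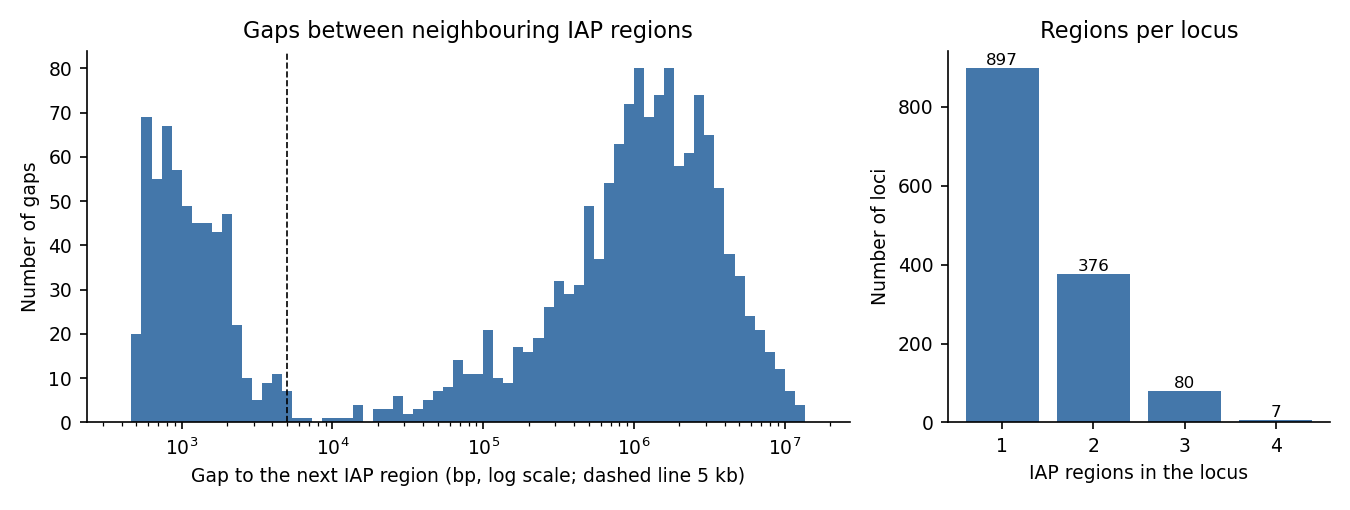
Left, the number of gaps between neighbouring IAP regions by gap length (bp, log scale) with a dashed line at 5 kb; right, the number of loci by the number of IAP regions they hold. Few gaps fall between 5 and 20 kb (13 of 1897), and 463 of the 1360 loci hold 2 or more regions.

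Across chromosomes IAP regions were found on all 20, and X lay among the autosomes. Density over the 19 autosomes averaged 0.744 ± 0.117 per Mb (SD, n = 19), with extremes of 0.531 on chromosome 19 and 0.598 on chromosome 12 at the low end and of 0.928 on chromosome 14 and 0.967 on chromosome 16 at the high end. X carried 0.763 per Mb, and 8 of the 19 autosomes carried more. It carried 1.94 times the autosomal mean of L1Md_T and 1.97 times that of L1Md_A, while for IAP the ratio was 1.03. IAP made up 3.99% of the regions on X and between 6.99% (chromosome 6) and 14.5% (chromosome 11) of those on an autosome. Chromosome 11 had the lowest density of L1Md_T regions of the 20 (1.6 per Mb) and an IAP density of 0.765, near the mean. The median score per kb ran from 30.6 on chromosome 16 to 33.6 on chromosome 18, and was 31.1 on X. A further 629 IAP regions on Y, which are not members, had a median of 13.4 per kb.

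**Figure D4:**
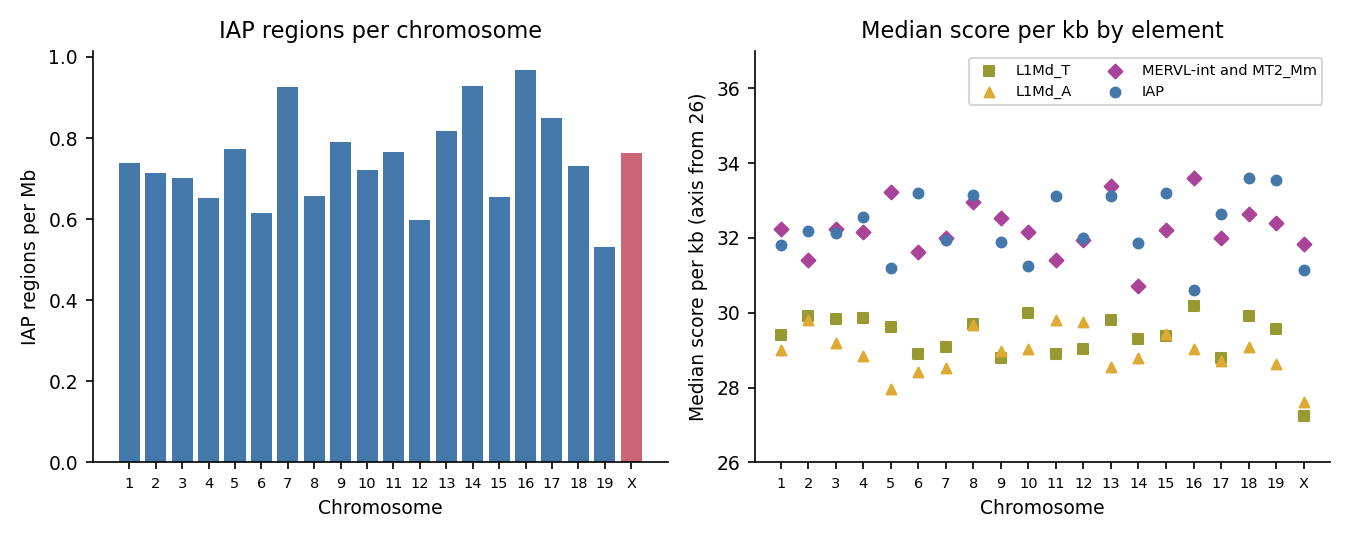
Left, IAP regions per Mb on each autosome (blue) and X (red); right, the median score per kb on each chromosome for IAP and 3 other element groups (the axis starts at 26). X, at 0.763 per Mb, lies among the autosomes, and the IAP medians of 30.6 to 33.6 lie above both LINE-1 families on every chromosome shown.

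Most IAP regions lay between genes. The authors' annotation placed 1534 in intergenic sequence (80%, 78.2 to 81.8%) and 383 in introns (20%, 18.3 to 21.8%), and 0 in an exon, UTR, promoter or termination site. That count was also 0 at L1Md_T, at L1Md_A, at MERVL-int and MT2_Mm and at ETn and MMERVK10C. All these families were chosen by the repeat name in the list's annotation, so the 0 is no trait of IAP. Among all 21113 other regions, 107 were in such a class. The intronic share was 21.2% at L1Md_T, 19.5% at L1Md_A and 31.5% (28.6 to 34.6%) at MERVL-int and MT2_Mm. On X 12 of 128 IAP regions were intronic (9.38%, 5.44 to 15.7%), against 20.7% on the autosomes (18.9 to 22.7%). Single autosomes ranged from 10.9% on chromosome 10 to 29% on chromosome 19, so X lay just below the lowest of them. The intronic share of other regions on X is not given here. The low share is therefore not shown to be particular to IAP. Placement made little difference to the regions themselves. Median length was 759 bp in introns and 755 bp between genes, the share of exactly 500 bp was 35% and 34.9%, and the median score per kb was 32.6 (31.9 to 33.3) and 32 (31.7 to 32.3), a log2 ratio of 0.026 with bounds of -0.017 and 0.068 when the medians' intervals are combined. No locus mixed intronic and intergenic regions.

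IAP regions were nearer to gene starts than LINE-1 regions were. The median distance to a transcription start site (TSS) in the list was 79.9 kb, against 127 kb for L1Md_T and 144 kb for L1Md_A, and 50.1 kb for MERVL-int and MT2_Mm. For ETn and MMERVK10C it was 54 kb, so both other retrovirus groups had a shorter median distance than IAP. Within 10 kb lay 175 IAP regions (9.13%), against 4.64% and 4.13% of the 2 LINE-1 families. The share was 10.2% at MERVL-int and MT2_Mm and 5.83% at ETn and MMERVK10C, so nearness to gene starts is not particular to IAP. The median distance was 91.3 kb for intergenic and 42.3 kb for intronic IAP regions. Within 1 kb there was none, but the other families chosen by repeat name had few there as well. The counts were 2 of 8708 at L1Md_T, 1 of 5830 at L1Md_A and 0 of 901 at MERVL-int and MT2_Mm. Whether the choice by repeat name leaves out regions at gene starts was not tested, so no share was drawn from the 0. The list measures from the region's centre. Measured in the same way from the starts in the RefSeq promoter table, 4 genes had an IAP region within 1 kb, so the count of 0 holds for the list's own gene models. Measured instead from the edge of the promoter window to the edge of the region, 10 windows lay within 1 kb.

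Within 5 kb of a TSS lay 34 IAP regions, 27 of them by a protein-coding gene; 21 were upstream and 13 downstream. The nearest, 1250 bp upstream of the non-coding Gm13710, had 44 per kb, above the 41.4 that 95% of IAP regions stayed under (chr2:84507703-84508544, score 37). Catsper3, a subunit of the sperm calcium channel, had a pair upstream of its start, at 1406 bp (chr13:55782923-55783423, score 13.8) and 2924 bp (chr13:55781332-55781978, score 22.1). H2al1k, a histone variant gene of the spermatid H2A.L family on X, had a region 2162 bp upstream (chrX:9348123-9348751, score 20.2). Glipr1l1, a testis protein with a role in sperm-egg binding, had one 2586 bp upstream (chr10:112057022-112058184, score 34.8) in a pair. Upstream regions were also found at Ext2, a heparan sulphate polymerase (2801 bp, score 15.7), at Bckdhb, which acts in the breakdown of leucine, isoleucine and valine (2900 bp, score 46.9), at the olfactory receptor Olfr194 (2855 bp, score 16.4) and at the non-coding Gm5084 (2540 bp, score 13.4). Inside genes, Hmox2, a haem oxygenase, had a region in its first intron 2492 bp from the start (chr16:4743784-4744426, score 16.8), and the carboxylesterase gene Ces2h had one in its first intron 3010 bp from it (chr8:105003550-105004176, score 24.6). The others of the nearest 15 were at Olfr11, Gm6902, 5430401F13Rik and the small nucleolar RNA gene Snord116l1, with distances of 3011 to 3694 bp and scores of 12.1 to 42.3. The RefSeq span of Gm6902 (chr7:23272788-23275243) does not hold its region (chr7:22896409-22898328), so that distance holds for the list's own gene models only. None of the 15 regions scored above 46.9.

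The highest scores belonged to long regions, all at IAPEz-int. The first lay in intron 2 of 14 of F13a1, the A subunit of coagulation factor XIII (chr13:37037368-37041810, 4442 bp, score 160.3, 36.1 per kb), 9.62 kb from its TSS. It was the 1 intronic region of the 10 with the highest score. Next were regions 218 kb from Gm10280 (chr8:113283100-113286867, score 136.5) and 40.3 kb from Rec114, a meiotic recombination gene (chr9:58780122-58783668, score 135.7). The longest of all was 433 kb from the potassium channel gene Kcnj3 (chr2:55867833-55872287, 4454 bp, score 132.9). The remaining 6 scored from 131 to 121.7 and were nearest to Agbl1, Gm12295, Olfr1168, Mctp2, Fgf9 and 4930558G05Rik. Fgf9, a growth factor needed for testis formation, had its region 15.1 kb upstream (chr14:58055624-58059462, score 122.5). All 10 were at least 3546 bp long, and 8 of the 10 were the 1 IAP region of their locus. The 5 longest regions were all among these 10. Their scores per kb, from 29.8 to 38.3, lay within the range of other IAP regions, so the rank by score mostly followed length.

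By score per kb another set led, among regions of at least 1 kb. The first was 39.4 kb from Obox3, an oocyte homeobox gene (chr7:15599852-15600852, 50.5 per kb), followed by regions 74.6 kb from the amino acid transporter gene Slc38a4 (chr15:96980874-96981907, 49.8 per kb) and 660 kb from the ephrin receptor gene Epha5 (chr5:85077053-85078516, 48.3 per kb). Those nearest to Il12a, Cldn18, 1700009N14Rik, Olfr368 and Kif2c had 44.2 to 45.7 per kb. In intron 20 of 33 of Polr1a, the large subunit of RNA polymerase I, a region had 44.9 per kb (chr6:71957717-71958753). The last of the 10 was 11.1 kb upstream of Suv39h2, an H3K9 methyltransferase of the germ line (chr2:3485595-3486656, score 46.9, 44.2 per kb), and its neighbour 9.43 kb upstream had a score of 35.7 and 31.1 per kb. No region was in both the first 10 by score and the first 10 by score per kb.

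The 383 intronic regions lay at 274 loci, and for 380 of them the annotated transcript gave a host name, 256 names in all. For 245 of these names the RefSeq span of the gene holds the region (366 regions); the other 11, of which 6 are microRNA names, have a span elsewhere or none in the table and are no sign of a gene around the region. The hosts were long genes. By RefSeq 235 were protein-coding, and the median span was 138 kb over all names and 146 kb over the 245, against 17.3 kb for all protein-coding genes. Hosts of the other intronic regions were not measured, so this length is not shown to be particular to IAP. The first intron held 103 of the 383 (26.9%), and 22.7% of the other intronic regions in the list. There were 157 hosts with 1 region, 79 with 2 and 20 with 3 or more. In 85 of the 99 hosts with 2 or more, all regions belonged to 1 locus. Csmd1, a large complement-control protein of the synapse, had 5 regions at 2 loci, all in its intron 3 (chromosome 8, gene span 1643 kb, summed score 174.1). Their scores were 26.3 and 29.9 at the first locus and 13.6, 87.3 and 17 at the second. Gpc6, a glypican, had 4 regions at 3 loci in introns 1, 2 and 4 (scores 13.4, 89, 12.3 and 11). Ralyl, an RNA-binding protein gene, had 4 at 2 loci in intron 3, with scores from 17.2 to 57.3. Wdr63, which encodes an axonemal dynein component of cilia and flagella, had 4 in a single locus of intron 7 (chr3:146084240-146089587), with scores from 15.3 to 34.2, in a gene of 67.6 kb. Hosts of 3 regions at 2 loci were Fhit, Kcnip4, the mitochondrial malic enzyme gene Me3 and Rab3gap1. Those with 3 regions at 1 locus included Adamts13, the protease that cleaves von Willebrand factor, in intron 23 of 28 (scores 17.6, 47.1 and 14.9), and Hlcs, holocarboxylase synthetase, in its first intron (scores 11.3, 68.6 and 36.3). Col4a4, Gabrb1, Gsap, Macrod2 and Nckap5 also had 3 at 1 locus, with summed scores from 51.2 to 80.7. Of all 12 hosts with 3 regions at 1 locus, the middle region had the highest score in 7, Adamts13, Gsap, Hlcs, Macrod2 and Nckap5 among them, and an outer one in 5, with Col4a4 and Gabrb1 among them.

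The 1534 intergenic regions had 937 nearest genes, 543 of them with 1 region. Pla2g4a, the cytosolic phospholipase A2 that frees arachidonic acid, was nearest to the most: 10 regions at 4 loci, 374 to 1501 kb from its TSS. Dsel and the adhesion gene Ncam2 were each nearest to 6 regions at 5 loci, Cobl and the transcription factor gene Ets1 to 6 at 4, Rag2 to 6 at 3, and Mir466 and the synaptic adhesion gene Nlgn1 to 6 at 2. A further 11 genes were nearest to 5 regions, 4 of them at 4 loci; of these, 4931408C20Rik and Cdh8 complete the 10 by alphabetical order. The closest region of these genes was 17.7 kb from Nlgn1; for the other 9 it was 43.4 to 697 kb away. These are counts of distance, and a gene beside a large gene-poor stretch can be nearest to more regions. Such stretches were not measured, so whether they account for the counts was not tested.

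The gene lists were written from general knowledge. Of 12 genes known for variably methylated IAP copies in C57BL/6, 4 were hosts of or nearest to an IAP region; these genes are listed because an IAP copy lies in or beside them, so the count reflects that choice. Slc15a2, a peptide transporter, had one in intron 7 of 21 (chr16:36767324-36768576, score 53.5, 42.7 per kb), and Cdk5rap1, an RNA-modifying enzyme, had one in intron 6 of 13 (chr2:154356738-154357238, score 19.5, 39 per kb). Eps8l1 was nearest to the region described above, and Sema6d, a semaphorin, to a pair of intergenic regions 192 and 218 kb away (scores 91.7 and 28.9). All 5 regions were above the IAP median of score per kb except the second at Sema6d (32.1). Element positions of the 12 genes were not used here, so whether the regions are the copies in question was not tested. For the lists below, of all 21631 protein-coding genes 1.09% were hosts and 4.5% were nearest to an IAP region. For the silencing of retroviruses 1 of 24 genes, Suv39h2, was nearest to IAP regions and 0 were hosts. The piRNA pathway (21 genes), meiotic prophase (25) and spermatogonia (15) had 0 hosts and 0 nearest. Spermiogenesis had 2 nearest of 23, Catsper3 and Spata16, whose pair of regions lay 62.7 and 64.8 kb upstream (scores 52.2 and 17). Of 19 genes of Sertoli, Leydig and other somatic cells, 1 was nearest, Cldn11 of the Sertoli cell junction, with 3 regions of 1 locus from 32.7 to 35.4 kb away (scores 14.7, 11.9 and 26.8). With lists this short, counts of 0 separate none of them from other genes.

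Synaptic adhesion and other long neuronal genes were hosts in 10 of 30 (33.3%), and nearest in 13 of 30. Their median span of 1135 kb far exceeded the 17.3 kb of all protein-coding genes, so the share was not compared. Besides Csmd1, Kcnip4 and Opcml, the hosts included Lrp1b (score 23.8), Dlg2 (29.5 and 44.6), Cntn5 (38.9), Cntnap2 (63.1) and Dmd (21.2). Opcml had 3 regions in its first intron, with scores of 14.7, 25.9 and 22.5. Nlgn1 and Lsamp each had an intergenic locus of 4 regions. At Nlgn1 it lay 17.7 to 21 kb upstream, with scores of 17.6, 14, 21.4 and 29.7, and at Lsamp from 337 to 332 kb upstream, with scores of 30.2, 13.2, 39.9 and 13.2. Of the clustered gene families, Zfp genes were hosts in 3 of 397 and nearest in 14 (3.53%). Vomeronasal receptors of the Vmn1r family were nearest in 9 of 230 (3.91%) and of the Vmn2r family in 13 of 123 (10.6%), with 1 host, Vmn2r35, which had 2 regions in its intron 4 (scores 29.1 and 12.1). Olfactory receptors were nearest in 21 of 1107 (1.9%), and 0 were hosts; their genes span a median of 0.949 kb. Neighbouring family members are not independent.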

How the data were processed

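Per the submitters' processing notes, Bowtie2 2.2.2, SAMtools and HOMER 4.6 were used, with mm10 as the build; their roles are not stated. Per the file headers, HOMER's annotation program wrote the deposited list, with each region's position, length, score, annotation, repeat at the centre, nearest gene and distance to its TSS. The authors' score has no stated unit. For peak settings, control and pooling the sources used here give nothing. With 0 columns per library in the list, no test over samples and no leaving out of replicates was possible.

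Members and gene lists were chosen with earlier results of these data known. Shares have Wilson and medians exact binomial (order statistic) 95% intervals, which cover counting error only; interval coverage was tested on simulated data. Bounds of a ratio of medians combine the bounds of both medians. Internal names end in -int or hold _I. Length classes were set finer than planned after the lengths were seen, since none exceeded 4454 bp. Chromosome spans began at 3 Mb and ended at the last gene or region. Hosts came from the transcript in the intron annotation, with 255 of 256 names matched to the RefSeq table of GRCm38.p6; 3 regions had no host name, and Dnmt3c was not matched. Regions named were the 10 highest scores, the 10 highest scores per kb from 1 kb up, the 5 longest, the 15 nearest to a TSS, the 15 hosts and 10 nearest genes with most regions (ties by number of loci, then alphabet), the chromosomes of extreme density and those at listed genes, of which some are not reported here. Stretches of 20 bases with at least 10 different trinucleotides linked promoter windows within 8 kb; this search was chosen after the data were seen. Alternatives are described in the closing section. The analysis ran in Python 3.11.15 (SciPy 1.17.1, NumPy 2.4.6, pandas 2.3.3), with figures from matplotlib 3.10.9.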

Additional observations from a re-analysis of the deposited data

How the results depend on the processing

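The rule, the score cutoff and the chromosomes moved several values, as their construction implies. Among the upper 50% by score were 1197 IAP regions, with a median length of 1046 bp, 33.7 per kb and 99.92% at the internal part. In the upper 10% there were 161 in 27 host genes, with 2688 bp, 34.9 per kb, 83.2% intergenic and 100% internal, and the log2 ratio of intronic to intergenic score per kb reversed to -0.026. With Y and contigs the intergenic share was 84.2%, the internal share 97.3%, the median length 669.5 bp, the score per kb 29.8 and the intronic ratio 0.16. Without regions of 500 bp there were 1247, with 1021 bp, 32.9 per kb and 99.92% internal. With neighbours within 10 kb counted once, the median length was 904 bp, with 33.1 per kb and 99.85% internal. The internal to LTR ratio kept its sign in every alternative that gave a value, from 0.053 without 500 bp regions to 1.29 with Y and contigs. The upper 10% held no LTR region. The kept sign carries little weight, since without 500 bp regions and in the upper 50% the ratio rests on a single LTR region. With Y and contigs it also mixes chromosomes, as IAP regions on Y had a median of 13.4 per kb over all names. By RefSeq gene spans there were 383 host genes, of which 245 were among the 256. The 12 linked promoter windows numbered 12 with 16 bases or 16 kb and 10 with 30 bases or 4 kb, alternatives chosen after seeing the data. In 37 cases, some of them given above, the value moved less than its interval or, for counts, less than the margin used. That margin was wide: 383 host genes against 256 stayed within it, as did 1353 regions, with neighbours within 10 kb counted once, against 1917. No paired analysis was possible because values per library are not listed, and depth is unknown.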

Other observations

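Counted in windows of 1 Mb, IAP regions were found in 1055 windows, of which 518 held 1 region and 23 held 5 or more. The fullest, on chromosome 1 (149000001 to 150000000), held 8 regions at 3 loci, all intergenic and nearest to Pla2g4a. Next was a window on chromosome 5 (151000001 to 152000000) with 7 regions at 3 loci, nearest to 1700028E10Rik and the vomeronasal receptor gene Vmn2r18. Windows with 6 regions lay on chromosome 11 (12000001 to 13000000, 4 loci, nearest to Cobl), on chromosome 18 (6000001 to 7000000, 3 loci, nearest to Kif5b, Mir1893 and Rab18) and at 2 places on chromosome 3. Of the last, one (26000001 to 27000000) held 2 loci near Nlgn1 and Spata16, and the other (156000001 to 157000000) held 3 loci near 9330178D15Rik and Negr1. In each of these 6 windows the loci were fewer than the regions.

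Of the 38 promoter windows that held a shared stretch but lay farther than 8 kb from an IAP region, the nearest was that of Gm33462 on chromosome 4, at 35.4 kb, and 4 belonged to the X genes Gm52448, Gm52439, Gm52436 and Gm52417, at 373 to 1190 kb. The windows of Gm33462, Gm33752 and Gm52439 lay 10.3, 10.6 and 10.9 kb from a region centred on another repeat or none. At the other end, that of 4930481A15Rik lay 2100 kb from a listed region of any kind. Why IAP regions were listed beside some of these starts and not beside others was not tested.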
